A study of Homo sapiens and Mus musculus with 13 samples.

Results

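RNase H-only peaks are regions listed in the human NT2 library that was treated with RNase H and in no other human list of the series. They were chosen as peaks of the RNase H list on chromosomes 1 to 22 that share not even 1 bp with a peak of the 5 other human lists, and 2551 of 8710 RNase H peaks on these chromosomes met the rule. They were thus chosen by the peak positions in these 6 lists, and the values below describe them without a test. The 6 human lists together held 325035 peaks. NT2 is a pluripotent line from a testicular embryonal carcinoma, and K562 is an erythromyeloblastoid leukaemia line.

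These peaks come from the library of NT2 DRIP-seq with RNase H. The first list it was set against was NT2 DRIP-seq with RNase A. For the other 4 the labels name no RNase: DRIP-seq of NT2 cut with either enzyme mixture (called digest A and digest B here), DRIPc-seq of NT2, and DRIP-seq of K562. Digest A used SspI, XbaI, BsrGI, EcoRI and HindIII, as did the RNase H, RNase A, DRIPc-seq and K562 libraries. Digest B was made with BamHI, NcoI, ApaL1, NheI and PvuII. Each list stands for 1 sample, except the DRIPc-seq list, which stands for 2, so no value below has a replicate check. The lists hold positions without heights or read counts, depth is unknown, and the shortest peak of every human list was 101 bp long. A region missing from a list is one that was not called there.

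R-loops form when RNA pairs with 1 strand of the DNA and leaves the other strand unpaired. They are common where transcription starts and ends, mostly over stretches in which the RNA is rich in G. DRIP-seq recovers the hybrids with an antibody and sequences the DNA, whereas DRIPc-seq sequences the RNA strand. RNase H degrades RNA that is paired with DNA, and a library treated with it is the usual negative control. RNase A degrades single-stranded RNA and, at low salt, paired RNA as well. What remains after RNase H can hold hybrids that escaped digestion, other material the antibody or the beads bound, and background. The peak lists cannot tell these apart.

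A peak of the RNase H list was often private to it. The share found in no other human list was 29.3% of the 8710 RNase H peaks (28.3 to 30.3%, exact Clopper-Pearson 95% interval, counting error only). By the same rule, 37.9% of DRIPc-seq peaks, 17.5% of RNase A peaks, 16.9% of K562 peaks, 10.3% of digest B peaks and 6.64% of digest A peaks were private to their list. The RNase H list thus stood between the DRIPc-seq list, which has a strand and was made from RNA, and the other DRIP-seq lists. The number of private peaks was the lowest of the 6 lists, 2551 after RNase H against 4325 in digest A, 4940 in digest B, 8325 in K562, 10164 after RNase A and 32308 in DRIPc-seq. The RNase H list was also by far the smallest, with 8710 peaks on these chromosomes against 47829 in digest B to 85289 in DRIPc-seq.

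The RNase A list decided membership more than any other. Of the 8710 RNase H peaks, 64.9% touched an RNase A peak, 38.2% a digest A peak, 35.9% a K562 peak, 29.3% a digest B peak and 18.99% a DRIPc-seq peak. Of the RNase H peaks touching an RNase A peak, 1934 touched no other list. Those touching 1 list only, and not RNase A, numbered 147 for K562, 87 for digest A, 73 for DRIPc-seq and 33 for digest B. Without the RNase A list in the rule, 4485 peaks would be members, or 51.5% of the RNase H peaks. At the other end, 1100 RNase H peaks touched all 5 lists. At the border of the rule, 6 members had the nearest peak 0 to 10 bases away and 49 had it within 100 bases. Just across the border, 6 RNase H peaks had 1 to 10 of their bases covered by another list and 58 had 1 to 100.

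RNase H-only peaks were short. Their median length was 486 bp (470 to 503 bp, interval from order statistics), against 1124 bp (1081 to 1171 bp) for the 6159 RNase H peaks that touched another list. The interquartile range of length ran from 323 to 910.5 bp in RNase H-only peaks and from 518.5 to 2524 bp in the others. Lengths under 500 bp made up 51.5% of RNase H-only peaks and 23.8% of the others, and lengths of 2 kb or more made up 7.68% of RNase H-only peaks and 32.0% of the others. All RNase H-only peaks together covered 2.00 Mb, and the other RNase H peaks covered 12.67 Mb.

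**Figure D1:**
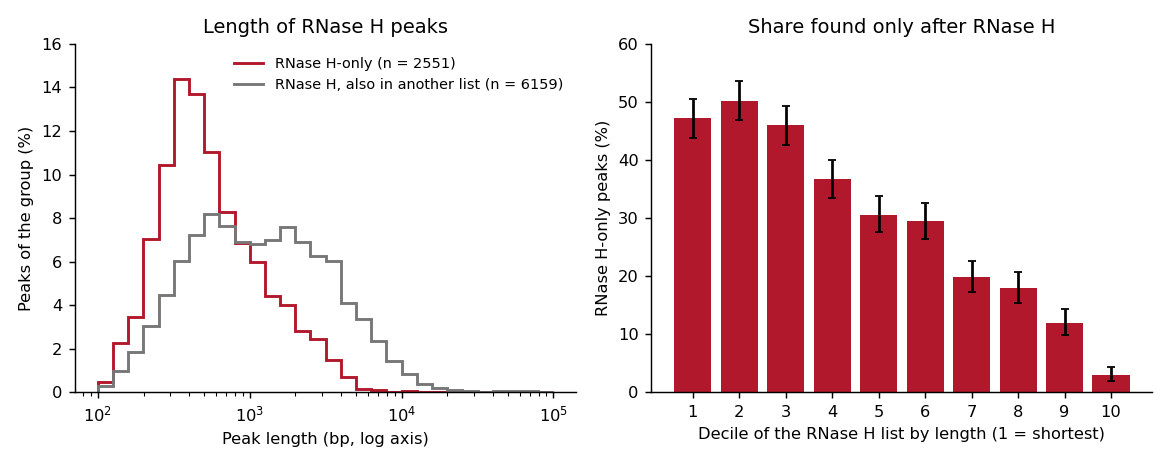
Left, length of RNase H-only peaks and of RNase H peaks that touch another human list, as the percentage of each group per length class on a log axis; right, share of RNase H-only peaks in each decile of the RNase H list by length, with exact 95% intervals. The red outline peaks near the median of 486 bp, and the share runs from 47.2% in the shortest decile to 2.99% in the longest.

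Length and the chance to be touched go together, and the share of RNase H-only peaks fell with length from the second decile on. Among RNase H peaks sorted by length, the shortest decile (101 to 273 bp) held 47.2% RNase H-only peaks, and the second decile (274 to 367 bp) held 50.2%. The fifth decile (616 to 825 bp) held 30.6%. In the longest decile, from 3845 bp upwards, 26 of 871 peaks were RNase H-only, or 2.99% (1.96 to 4.34%). Private peaks were the shorter ones in every list. Their medians were 1174 bp in DRIPc-seq, 1021 bp after RNase A, 635 bp in digest B, 631 bp in K562 and 388 bp in digest A, each below that of the peaks the list shared.

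The longest RNase H-only peak lay on chromosome 1 from 4391700 to 4402386 (10.7 kb; hg19, counted from 1, here and below). Its nearest neighbour in any other list was a digest B peak 28.2 kb away, and the nearest RNase H peak was 28.3 kb away. The second, on chromosome 20 from 20807138 to 20814230 (7.09 kb), stood 114.4 kb from any other list. The third lay on chromosome 13 from 114319397 to 114325775 (6.38 kb), with a digest A peak 13.5 kb away. No other list had a peak closer than 13.5 kb to any of these 3.

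Others among the longest had a called peak close by. The peak on chromosome 21 from 35735798 to 35741681 (5.88 kb) was 2.96 kb from a DRIPc-seq peak. That on chromosome 2 from 219712444 to 219718217 (5.77 kb) was 1.18 kb from an RNase A peak and 2.71 kb from another RNase H-only peak. On chromosome 20, the peak from 36075026 to 36080459 (5.43 kb) had another RNase H-only peak 0.734 kb away, and no other list came closer than 22.9 kb. The rest of the 10 longest were on chromosome 10 from 5893879 to 5898952, chromosome 6 from 168047894 to 168052709, chromosome 16 from 66619088 to 66623893 and chromosome 19 from 21066021 to 21070800. They were 4.78 to 5.07 kb long and 4.71 to 5.94 kb from the nearest other list. No genome or annotation of hg19 was used here, so these regions are given without genes, repeats or sequence.

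RNase H-only peaks were found on every autosome and were spread more evenly than other RNase H peaks. Their density ran from 0.365 per Mb on chromosome 13 to 1.84 per Mb on chromosome 19, a ratio of 5.05. For the RNase H peaks that touched another list it ran from 0.304 to 11.8 per Mb on the same chromosomes, a ratio of 38.6. Digest A peaks lay between, with 7.33 per Mb on chromosome 13 and 68.1 per Mb on chromosome 19. The rule bears on this comparison, since RNase H peaks are more easily touched where the other lists are dense. How much of the evenness comes from the rule was not tested. Length was counted from the first base, so chromosome 13 includes the stretch before its first peak, at 19239207, which lowers its densities. Over the 22 chromosomes, the density of RNase H-only peaks had a Spearman rho of 0.88 with that of the other RNase H peaks, 0.71 with RNase A and 0.60 with digest A. These coefficients describe chromosomes, which are not replicates and share base composition and the same libraries.

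**Figure D2:**
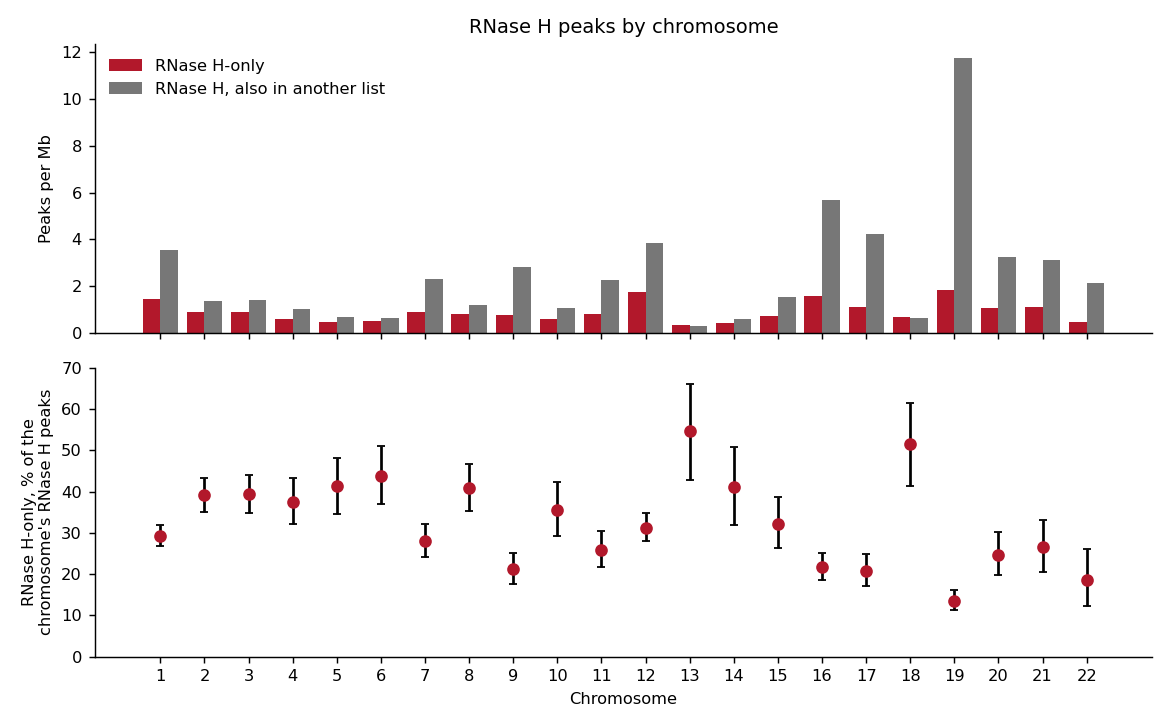
Top, peaks per Mb on each autosome for RNase H-only peaks and for RNase H peaks that touch another list; bottom, RNase H-only peaks as a percentage of all RNase H peaks on the chromosome, with exact 95% intervals. Chromosome 19 has the lowest percentage (13.6%) and chromosome 13 the highest (54.5%).

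The share of RNase H-only peaks was highest on chromosomes 13 and 18, which were the poorest in digest A peaks (7.33 and 8.37 per Mb). Chromosome 4, the next poorest with 11.6 per Mb, had a share of 37.5%. Chromosomes 13 and 18 were also the poorest in RNase A peaks (6.28 and 7.83 per Mb). Both lists are part of the rule, and fewer peaks in a list can leave more RNase H peaks untouched. Over the autosomes the share was 29.3%, against 30.3% without digest A in the rule and 51.5% without the RNase A list. How much of the pattern comes from the rule was not tested. On chromosome 13, 42 of 77 RNase H peaks were RNase H-only (54.5%, 42.8 to 65.9%), and on chromosome 18, 53 of 103 (51.5%, 41.4 to 61.4%). Chromosome 6 followed with 43.8% and chromosome 5 with 41.2%. At the low end, 109 of 804 RNase H peaks on chromosome 19 were RNase H-only (13.6%, 11.3 to 16.1%), followed by chromosome 22 with 18.5% and chromosome 17 with 20.8%. The intervals of chromosomes 13 and 18 do not reach those of chromosomes 17, 19 and 22.

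Chromosome 12 carried more RNase H peaks of both kinds than most chromosomes. It held 235 RNase H-only peaks, 9.21% of them all on 4.65% of the summed chromosome length, and 516 other RNase H peaks (3.86 per Mb, against a median of 1.84 per Mb over the autosomes). Chromosome 1 held the most, 365, on 8.66% of the length. On chromosome 12 both kinds were denser before 34.86 Mb, where the longest stretch without any peak begins, which spans the centromere, than after it. RNase H-only peaks numbered 112 before it (3.21 per Mb) and 123 after it (1.28 per Mb). The other RNase H peaks numbered 253 before it (7.26 per Mb) and 263 after it (2.74 per Mb). Both sides were above the medians over the autosomes, 0.814 per Mb for RNase H-only peaks and 1.84 per Mb for the others.

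The RNase A list showed the same side as the denser one, with 37.2 peaks per Mb before the stretch and 25.2 after it, and so did DRIPc-seq, with 33.2 before and 30.8 after. The order was the opposite in digest A, with 19.3 per Mb before and 25.8 after, in digest B, with 15.3 before and 18.4 after, and in K562, with 10.4 before and 20.4 after. The share of RNase H peaks that were RNase H-only was alike on both sides, 30.7% (26.0 to 35.7%) before and 31.9% (27.2 to 36.8%) after. The short arm of chromosome 12 is often gained in testicular germ cell tumours, and copy number was not analysed here. By bins of 10 Mb, the bin from 20 to 30 Mb of chromosome 12 held 30 RNase H-only peaks beside 23 other RNase H peaks and 91 digest A peaks. The fullest bin of all was the first of chromosome 19, with 42 RNase H-only peaks beside 273 other RNase H peaks and 984 digest A peaks. These bins were chosen after their values were seen.

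Few large regions were without RNase H-only peaks. Of 293 bins of 10 Mb that held a peak, 8 had no RNase H-only peak, and the median bin had 7. The 20 fullest bins held 20.7% of the RNase H-only peaks, whereas their own 20 fullest bins held 37.0% of the other RNase H peaks. The rule bears on this comparison too, since peaks in crowded regions are more easily touched. Near chromosome ends, RNase H-only peaks were less common than the peaks set beside them here, which is not a comparison with chromosome length. Within 5 Mb of a chromosome end lay 11.6% of RNase H-only peaks (10.3 to 12.9%), against 25.2% of the other RNase H peaks (24.1 to 26.3%), 16.5% of RNase A peaks and 14.4% of digest A peaks. Within 2 Mb of the longest stretch without a peak, by contrast, lay 5.33% of RNase H-only peaks (4.49 to 6.28%) and 6.59% of the other RNase H peaks (5.98 to 7.24%). Both exceeded the RNase A (2.78%) and digest A (2.82%) lists there. On most chromosomes this stretch is the centromere and the heterochromatin beside it, but on others it is a gap in an arm.

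The surroundings of RNase H-only peaks held fewer peaks of the other lists than those of the other RNase H peaks. In the 500 kb on each side of a peak's midpoint, RNase H-only peaks had a median of 22 digest A peaks, and the other RNase H peaks had 63. Over the autosomes, the median density of digest A peaks was 22.4 per Mb. For RNase A peaks the medians were 22 around RNase H-only peaks and 64 around the others, and for K562 peaks they were 14 and 50. No digest A peak at all lay in this window for 320 RNase H-only peaks (12.5%) and 103 of the others (1.67%). When all RNase H peaks were ranked by the number of peaks of the 5 other lists in this window, 53.7% (51.6 to 55.8%) of the poorest quartile were RNase H-only, against 9.53% (8.32 to 10.8%) of the richest quartile. The rule selects for this, since a peak in a crowded region is more easily touched. The median length of RNase H-only peaks was 455 bp in the poorest quartile and 515.5 bp in the richest.

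RNase H-only peaks nevertheless lay closer to called peaks than neighbouring empty positions did. The median distance from a member to the nearest peak of the 5 other lists was 13969 bases, and the interquartile range was from 2977 to 58668 bases. For comparison, all members were moved up and down by fixed steps of 50, 100, 200 and 500 kb, and of each moved set the positions that touched no peak of the 5 lists were kept. Over the 8 moved sets, which kept 1955 to 2085 positions, the median distance was between 19279 and 26520 bases. Of RNase H-only peaks, 14.2% had a peak of another list within 1 kb, against 6.37 to 8.02% of the moved positions. Within 10 kb the values were 44.0% for RNase H-only peaks and 32.4 to 37.0% for moved positions, and within 100 kb they were 83.2% and 77.2 to 79.1%. The moved sets are descriptions without a test.

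**Figure D3:**
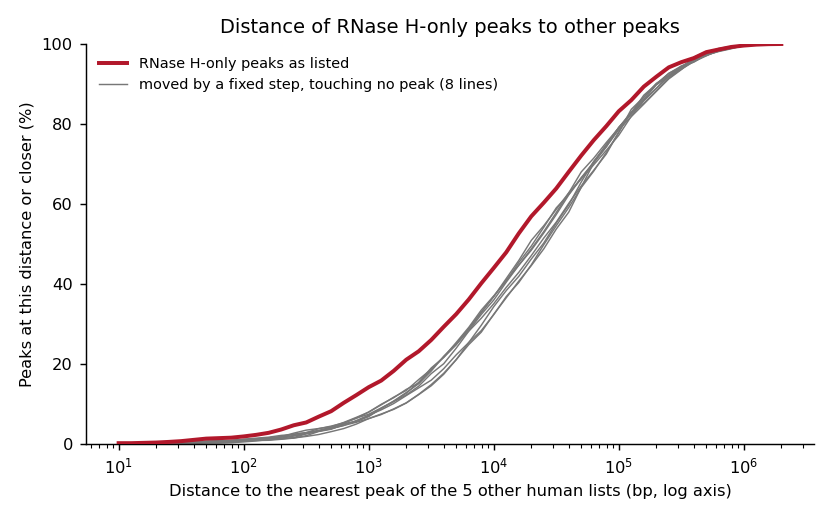
Percentage of positions with a peak of the 5 other human lists at the given distance or closer (log axis). The red line is the 2551 RNase H-only peaks, and the 8 grey lines are the same peaks moved by fixed steps of 50 to 500 kb, kept where they touched no peak. The red line is above all grey lines at 1, 10 and 100 kb.

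The neighbour was most often an RNase A peak. This list held the nearest peak for 974 RNase H-only peaks (38.2%), followed by DRIPc-seq for 724, digest B for 375, K562 for 293 and digest A for 185. An RNase A peak lay within 1 kb of 9.68% of RNase H-only peaks, against 2.08 to 3.07% of moved positions. K562 peaks lay within 1 kb of 2.98% of RNase H-only peaks and 1.26 to 2.07% of moved positions. For the remaining lists the members fell inside the range of the moved positions. A digest A peak within 1 kb was found for 1.69% of members and 1.29 to 1.81% of moved positions, a digest B peak for 1.84% and 1.25 to 2.15%, and a DRIPc-seq peak for 1.96% and 1.77 to 3.29%.

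Farther out, the digest A and digest B lists were also nearer to members than to moved positions. Within 50 kb, a digest A peak was found for 45.3% of RNase H-only peaks and 35.5 to 41.2% of moved positions, and a digest B peak for 46.6% and 37.5 to 42.7%. DRIPc-seq was the exception, with 53.2% of members inside the range of 45.4 to 54.5% of moved positions. The DRIPc-seq list is the one made from the RNA strand.

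The RNase A peaks next to members differed from those farther away in what else they touched. Of the 262 RNase A peaks within 1 kb of an RNase H-only peak, 37.8% (31.9 to 44.0%) touched some other RNase H peak, against 8.15% (7.93 to 8.38%) of the 56902 RNase A peaks more than 10 kb from any member. Of the same 262 peaks, 81.7% (76.5 to 86.2%) touched no digest A, digest B, DRIPc-seq or K562 peak, against 19.6% (19.3 to 19.96%) of those more than 10 kb away. The rule keeps peaks of these 4 lists off the members and so weighs on the second pair of values. The first pair carries a choice too, since the 262 peaks were picked for lying near a peak of the RNase H list. How much of either difference comes from these choices was not tested. Members with an RNase A peak within 1 kb numbered 247, and 27.1% of them also had a further RNase H peak within 1 kb, against 6.55% of the remaining members.

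Some RNase H-only peaks came in groups. Another RNase H-only peak lay within 50 kb of 645 of them (25.3%, 23.6 to 27.0%), within 10 kb of 366 (14.3%, 13.0 to 15.8%) and within 1 kb of 121 (4.74%). Moving the whole list would keep its spacing, so every other member was moved by the same fixed steps. Unlike in the distance comparison, moved members that touched a peak of the 5 other lists were kept. Within 10 kb, 2.21 to 3.93% of members then had a neighbour, and within 1 kb 0.0792 to 0.709%. Within 50 kb the range was 11.5 to 22.3%, the upper end coming from steps of 50 kb. At 200 kb the members had 45.6%, steps of 50 to 200 kb gave 43.8 to 47.2%, and those of 500 kb gave 36.7 and 38.0%. The median spacing was 239949 bases, against 222580 to 252462 with steps of 50 to 200 kb and 288903 and 303412 with 500 kb. A close pair parted by a step of up to 200 kb can stay about 200 kb apart, so those steps cannot decide grouping at that distance. The members were thus more grouped than all moved sets at 1, 10 and 50 kb. At 200 kb they were more grouped than the sets moved by 500 kb. With RNase H peaks within 1 kb merged first, the share within 50 kb was 20.4%, and no moved sets were made for that setting.

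**Figure D4:**
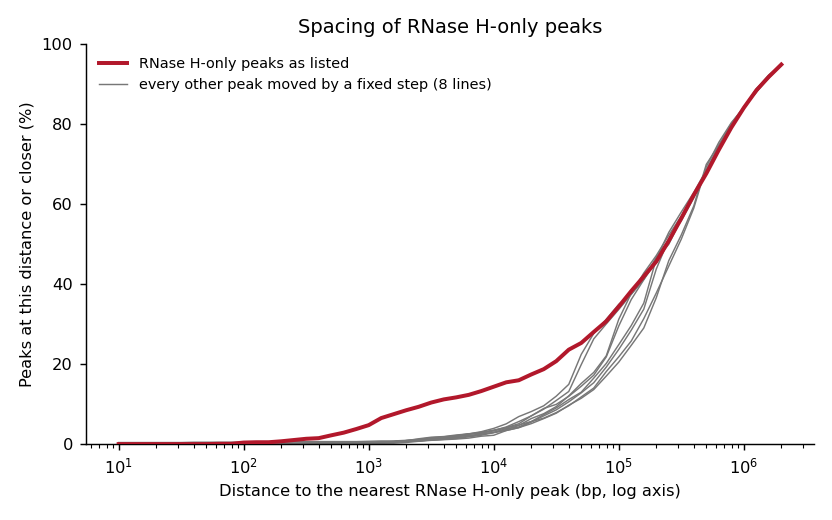
Percentage of RNase H-only peaks with another RNase H-only peak at the given distance or closer (log axis). The red line is the list as deposited, and the 8 grey lines have every other member moved by a fixed step of 50 to 500 kb. The red line stands above all grey lines at 1 and 10 kb (4.74% and 14.3%). At 200 kb (45.6%) it is among the lines for steps of 50 to 200 kb and above those for 500 kb.

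Other RNase H peaks were grouped far more tightly. Within 10 kb, 14.3% of RNase H-only peaks had another RNase H-only peak, and 52.6% of the other RNase H peaks had another of their own kind, although the second group is larger and denser. The median spacing of the other RNase H peaks was 6746 bases. Most RNase H-only peaks stood alone. No RNase H peak of either kind lay within 50 kb of 1501 members (58.8%), and no peak of any human list lay within 50 kb of 600 (23.5%). An RNase H peak that touched another list lay within 1 kb of 97 members (3.80%). For moved positions the value was 1.68 to 2.30%, here counted over all of them, also those that touched a peak. The 2 sides are therefore not matched, since no member touches a peak. Directly abutting peaks were rare, with 2 members at a gap of at most 1 base.

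Linking members up to 50 kb apart gave 291 groups of 2 or more, 47 of 3 or more and 12 of 4 or more, beside 1906 single peaks. Members with another one within 50 kb had a median length of 552 bp (496 to 589 bp), and single ones had 472 bp (456 to 491 bp). The group with the most members was on chromosome 12 from 132928465 to 132992069, near the end of the long arm, with 7 RNase H-only peaks of 450 to 2252 bp in 63.6 kb. They fell into a pair at the start, 3 peaks with gaps of 0.56 and 0.874 kb between them, and 2 single ones. The same stretch held 2 more RNase H peaks and 3 RNase A peaks and no digest A, digest B, DRIPc-seq or K562 peak.

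**Figure D5:**
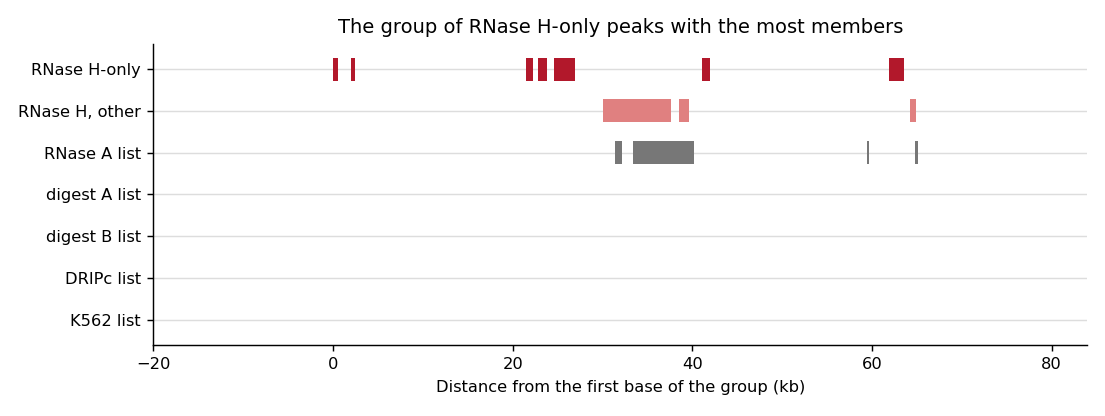
Peaks of each human list around the group of RNase H-only peaks with the most members, as distance in kb from the first base of the group; each bar is a peak drawn to scale. The 7 RNase H-only peaks lie on both sides of other RNase H peaks that overlap RNase A peaks, and the digest A, digest B, DRIPc-seq and K562 rows are empty.

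The second group was at the opposite end of chromosome 12, from 210426 to 290910, with 5 RNase H-only peaks of 446 to 1780 bp, 2 RNase A peaks, and 1 peak each of digest A and digest B. The third was the tightest. On chromosome 2 from 3776097 to 3783400, 4 RNase H-only peaks of 391 to 2045 bp filled 4877 of 7304 bases, each within 1.04 kb of another. No other list had a peak within 76.9 kb of it, and the nearest other RNase H peak was 136.5 kb away. The fourth group lay on chromosome 7 from 4669723 to 4697075, with 4 members, the largest of them 3748 bp long and 142 bases from an RNase A peak. The fifth lay on chromosome 4 from 1478587 to 1513543, with 4 members of 170 to 4676 bp. The groups on chromosomes 2, 7 and 4 are the shortest in span of 10 groups with 4 members each. Of the 12 groups of 4 or more members, 6 lay within 5 Mb of a chromosome end, these 5 among them. The remaining one was also on chromosome 4, from 1071036 to 1139265. Of all RNase H-only peaks, 11.6% lay that near an end, and smaller groups were not counted by position.

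Isolated members were short too. RNase H-only peaks more than 100 kb from any other list numbered 429 (16.8%) and had a median length of 442 bp (416 to 467 bp), against 523 bp (472 to 555 bp) for the 363 within 1 kb. Lengths of 2 kb or more made up 6.29% and 4.96% of these groups. By the same measure, 9.31% of private DRIPc-seq peaks, 6.65% of private RNase A peaks, 5.51% of private K562 peaks, 0.578% of private digest A peaks and 0.344% of private digest B peaks were more than 100 kb from the other lists. The share within 1 kb was 14.2% for RNase H-only peaks and 51.8% for private digest A peaks.

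The member farthest from any other list was a peak of 150 bp on chromosome 13 from 63602598 to 63602747, with a digest B peak 1613 kb away as the nearest. On chromosome 21, the peaks from 25205069 to 25205922 and from 25050130 to 25050395 were 1441 and 1286 kb from any other list and 154.7 kb from each other. Chromosome 11 held the next, from 80455002 to 80455237, at 1302 kb. The last of these 5 was on chromosome 3 from 83033978 to 83034499, at 1218 kb. The 5 farthest members were between 150 and 854 bp long.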

How the data were processed

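The human peak lists were used as deposited by the authors: each peak has a start and an end in bp but no height or score, and the DRIPc-seq list adds a strand. BWA 0.6.1, TopHat2 2.0.5 and Bismark 0.7.7 are named without a role, and hg19 as a build, per the submitters' processing notes. No source used here names the caller, threshold or control. Members and descriptions were chosen with earlier results of these data known. Overlap ignored strand. Distance is the number of bases between peak edges. Chromosome length was taken as the last peak of any human list. Moved positions outside the first and last peak, or in the longest stretch without a peak, were dropped. The regions named are the 10 longest members, the 5 groups with the most members (ties by shorter span) and the 5 members farthest from the other lists. Alternatives changed the overlap, the lists in the rule, merging, length and chromosomes. bedtools 2.31.1 gave the same 2551 members. The functions were tested on simulated lists. Scripts ran in Python 3.11.15 with scipy 1.17.1, pandas 2.3.3, numpy 2.4.6 and matplotlib 3.10.9. The mouse lists, RNA-seq and MethylC-seq were not used here.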

Additional observations from a re-analysis of the deposited data

How the results depend on the processing

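The number of RNase H-only peaks was 2551 and stayed within 1.5 times that value except without the RNase A list in the rule (4485) and with the longest 50% of RNase H peaks (714). Without the RNase A list the share of RNase H peaks was 51.5%, the median length 660 bp, the median distance 19656 bases and the share with another member within 50 kb 43.5%. With the longest 50% these were 16.4%, 1390.5 bp, a distance inside the main interval, and 14.4%. When the other lists were widened by 1 kb the share was 25.1%, the distance 20056 bases and the neighbour share 21.3%. When at least 50% of a peak had to be covered to count as shared, they were 33.8%, 9131 bases and 28.1%, with a median length of 537 bp. With RNase H peaks within 1 kb merged they were 31.5%, 15304 bases and 20.4%. The share was 30.98% without K562 and 30.3% without digest A, and the distance was 18456 bases without DRIPc-seq and 15743 bases between midpoints. A neighbour within 10 kb was found for 14.3% and within 200 kb for 45.6%. Leaving out digest B, or adding chromosomes X and Y, kept the number of members within 1.5 times and the other 4 values inside their 95% intervals. Chromosome 12 held 450 members without the RNase A list and 56 with the longest 50%, against 235. The share on chromosome 19 was 30.97% without the RNase A list, 7.11% with the longest 50% and 11.1% with the lists widened, against 13.6%. No paired analysis was possible because each list is 1 sample or a pool and no result comes from a test. Depth is unknown, so weak regions missed in a shallow library cannot be told from absent ones.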

Other observations

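Chromosomes X and Y were outside the rule. By the same criterion, 85 of 184 RNase H peaks on chromosome X (46.2%, 38.8 to 53.7%) and 25 of 104 on chromosome Y (24.0%, 16.2 to 33.4%) touched no other human list. Their median lengths were 467 bp on chromosome X and 427 bp on chromosome Y, against 1473 and 1295 bp for the RNase H peaks there that did.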
